A study of Mus musculus with 36 samples.

Results

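The 35 genes described here take up and break down glucose, or are switched on when oxygen is short. They were chosen by symbol: 15 glycolytic enzymes, 3 membrane transporters of glucose or lactate, and 17 targets of the hypoxia response, out of 45706 gene identifiers in the count tables. All 35 symbols were found, each as 1 protein-coding gene, on 15 chromosomes.

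RNA was sequenced from spleen CD4+ T cells of wild-type (WT) C57BL/6J mice and of mice of the strain C57BL/6J-Ets1-SE-KO (KO). The KO mice lack a super-enhancer beside Ets1, the gene of a T cell transcription factor. Naive cells were isolated by negative selection and had 2 libraries per genotype. Th1 and Th2 cells, helper T cells polarized in culture, had 3 libraries per genotype and fate. For Th1, naive cells were cultured for 6 days on plate-bound anti-CD3 with 10 ng/mL IL-12, 1 ng/mL IL-2 and soluble anti-CD28; the Th2 condition is not described in the sources used here. A second Th1 set held untransduced cells (2 WT and 2 KO libraries), WT cells carrying an empty retroviral vector (EV, 4 libraries) and KO cells carrying an Ets1 retrovirus (Ets1-RV, 4 libraries). Libraries of the second set that share a B number in their titles were summed, which left 2 samples in each of its 4 groups. No other allele, age or sex is given, and 8 libraries whose title and transduction label disagree entered no comparison. The titles give every naive, Th1 and Th2 library of the first sets the same B number, so their spread may be technical and the p-values measure only the spread between those libraries.

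Glycolysis splits glucose into pyruvate in the cytosol. Hexokinases trap glucose in the cell, phosphofructokinases commit it to breakdown, and lactate dehydrogenase turns pyruvate into lactate, which leaves through monocarboxylate transporters. Activated T cells are known for raising glycolysis even where oxygen is plentiful. The hypoxia response is led by HIF-1, a pair of HIF-1alpha and ARNT. Prolyl hydroxylases such as those encoded by Egln1 and Egln3 mark HIF-1alpha for destruction while oxygen is present, and HIF-1 drives glycolytic genes as well as genes for autophagy of mitochondria, collagen hydroxylation, glycogen storage, vessel growth and lipid droplets.

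Gene counts ranged from 5069623 to 5852673 per naive library, from 7311614 to 10256407 per Th1 or Th2 library of the first set, and from 1813288 to 6844944 per library of the second set. Levels below are in CPM, gene counts relative to the total of the library, scaled by trimmed-mean (TMM) factors over the 24 samples. Ets1 was at 1690 and 1689 CPM in WT naive samples and at 644 and 668 CPM in KO naive samples. In Th1 cells Ets1 was at 664 to 755 CPM in WT and 489 to 563 CPM in KO. The untransduced samples had Ets1 at 450 and 496 CPM in WT and 258 and 278 CPM in KO. The 4 CD4 T cell markers Cd3e, Cd3d, Cd4 and Trac were detected in every group. The 3 Th1 markers Tbx21, Ifng and Cxcr3 summed to 532 to 929 CPM in WT Th1 and 6.28 to 7.69 CPM in WT Th2 samples. The genotypes of the naive set differed in sex: Xist, which is transcribed from the inactive X chromosome, was at 434 and 466 CPM in WT and had no counts in KO, whereas the Y-linked gene Ddx3y was at 0.957 and 0.639 CPM in WT and at 106 and 122 CPM in KO. Ddx3y had no counts in any Th1 or Th2 sample of the first set, where Xist was at 171 to 299.6 CPM. In the second set Ddx3y was at 47.0 to 69.1 CPM in the sample with B number 1 of each group and at 0 to 0.14 CPM in that with B number 2. The counts of reads from 9 members are less certain than the others, because over 5% of their 61-base stretches also occur in transcripts of other genes: 8 enzymes (53.4% for Pgk1, 35.6% for Pgam1, 24.6% for Eno1 and 23.7% for Gapdh) and the hypoxia target Bnip3 (14.2%).

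**Figure D1:**
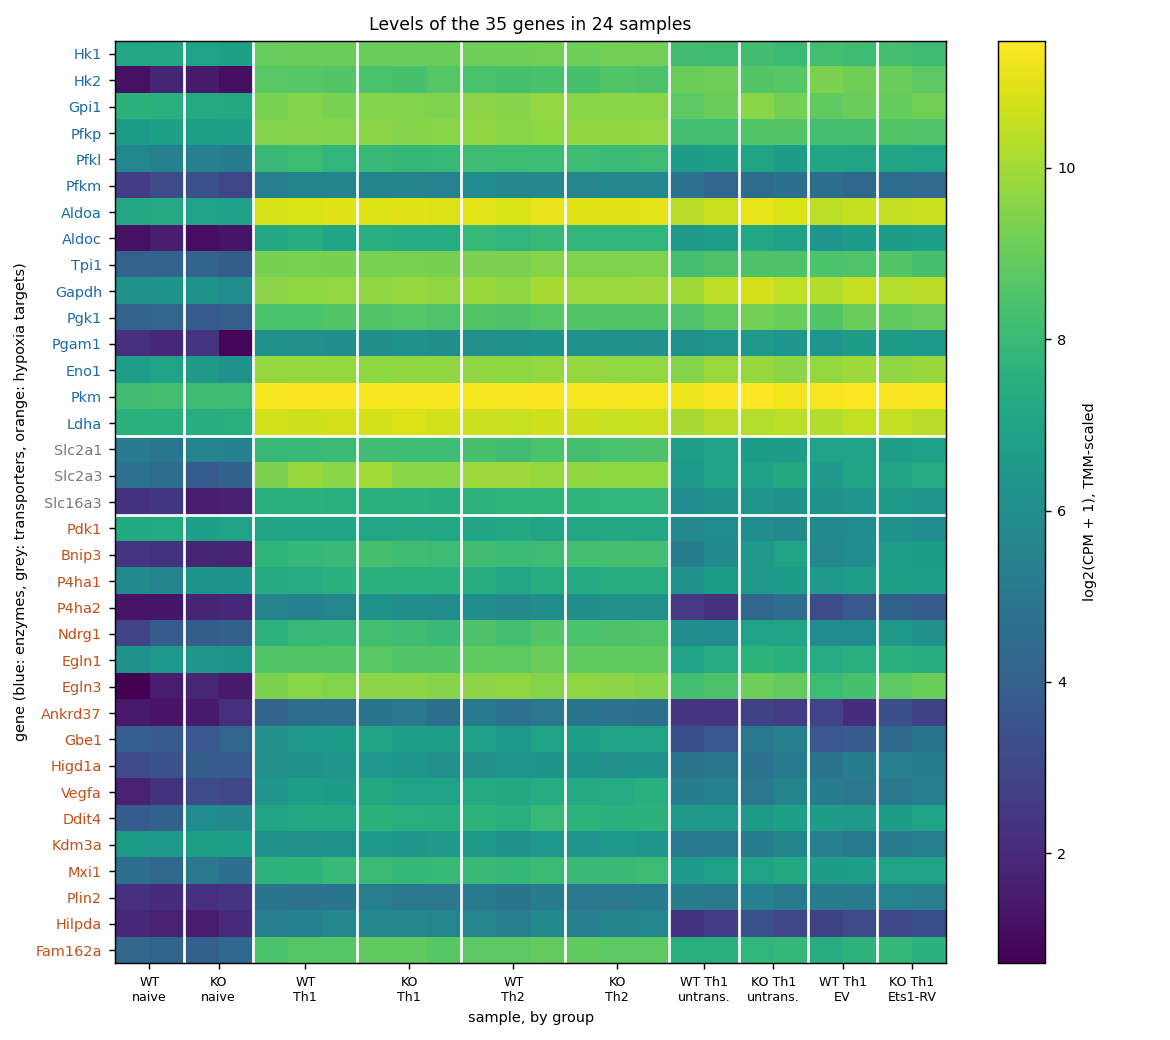
Levels of the 35 genes (rows) as log2(CPM + 1), TMM-scaled, in 24 samples (columns) grouped by genotype and state; the color scale gives the level. Naive samples are darker than Th1 and Th2 samples of the first set in nearly all rows. Several hypoxia targets such as P4ha2, Gbe1 and Hilpda are darker in the second Th1 set than in the first.

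The first comparison asked how the genes stood in cultured cells against naive cells of the same genotype. In WT cells all 15 enzymes and all 3 transporters were higher in Th1 than in naive samples, as were 15 of the 17 hypoxia targets, while Pdk1 and Kdm3a were lower. A gene was called higher or lower at an adjusted p (Benjamini-Hochberg over all genes tested, edgeR quasi-likelihood test) under 0.05. Of all 14029 genes tested, 40% were called higher and 36.1% lower, so about 3 in 4 genes differed between these sets and the call alone separates the members little from other genes. The median log2 fold change was 3.20 over the enzymes, 4.97 over the transporters and 3.36 over the hypoxia targets, against 0.10 over all genes tested. Changes in both directions cancel in the last value; taken without sign, the median was the same over the 3 groups of members and 1.05 over all genes tested. Naive and cultured cells were separate library sets, and cell state and set cannot be told apart. Other marker sums moved with this comparison: B cell markers were at 227 to 231 CPM in WT naive and 24.1 to 27.2 CPM in WT Th1 samples, the 11 stress and immediate early genes at 4157 to 4191 and 1719 to 1877 CPM, and erythroid and platelet markers at 19.3 and 0 CPM; their part in the result was not tested.

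Egln3, which encodes a HIF prolyl hydroxylase that is itself a hypoxia target, had the largest difference of all members. It was at 0.638 and 1.92 CPM in WT naive samples, from 4 and 12 counts, and at 658, 762 and 696 CPM in WT Th1 samples, a log2 fold change of 9.08 ± 0.18 (SE; n = 2 and 3 libraries; edgeR adjusted p = 2.1e-23). Hk2, the inducible hexokinase, was at 1.28 and 2.56 CPM in WT naive samples and at 420, 405 and 388 CPM in WT Th1 samples (log2 fold change 7.70 ± 0.16). Aldoc, an aldolase best known from brain, followed among the enzymes, with 1.28 and 2.08 CPM in naive and 152, 172 and 135 CPM in Th1 samples (6.49 ± 0.18). In each of these 3 genes the naive samples were near the limit of detection and all Th1 samples were far above them.

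Tpi1, triose phosphate isomerase, was at 16.26 and 15.97 CPM in WT naive and at 614, 635 and 614 CPM in WT Th1 samples (5.26 ± 0.10). Pgam1, phosphoglycerate mutase, was at 3.51 and 2.88 CPM in WT naive and at 73.7, 69.8 and 62.0 CPM in WT Th1 samples (4.41 ± 0.21). The smallest differences among the enzymes were those of Gpi1, glucose phosphate isomerase, at 1.76 ± 0.08, and of Hk1, the constitutive hexokinase, at 1.86 ± 0.07. Slc16a3, the lactate exporter MCT4, was at 3.83 and 4.47 CPM in WT naive and at 192, 193 and 180 CPM in WT Th1 samples (5.49 ± 0.13). Slc2a3, the glucose transporter GLUT3, differed by 4.97 ± 0.16 and Slc2a1, GLUT1, by 3.01 ± 0.09. No naive sample overlapped a Th1 sample in any enzyme or transporter, but the share of all genes without overlap was not counted.

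Among the hypoxia targets, Bnip3, which marks mitochondria for autophagy, was at 3.99 and 3.83 CPM in WT naive and at 216, 233 and 259 CPM in WT Th1 samples (5.90 ± 0.14). Vegfa, the vascular growth factor, was at 2.23 and 3.83 CPM in naive and at 82.5, 103 and 94.9 CPM in Th1 samples (4.93 ± 0.19). P4ha2, a collagen prolyl hydroxylase subunit, was at 1.44 and 1.60 CPM in naive and at 45.4, 43.1 and 49.8 CPM in Th1 samples (4.90 ± 0.20). The targets thus spanned a wide range, since 2 of them stood below 0. Pdk1, the kinase that shuts pyruvate dehydrogenase, was at 153 and 158 CPM in WT naive and at 135, 133 and 130 CPM in WT Th1 samples (log2 fold change -0.24 ± 0.08, adjusted p = 0.0070, edgeR). Kdm3a, a histone H3K9 demethylase, was at 94.9 and 88.3 CPM in WT naive and at 71.9, 70.3 and 74.6 CPM in WT Th1 samples (-0.35 ± 0.09, adjusted p = 0.00090, edgeR).

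WT Th2 against WT naive samples gave 33 members higher and 1 lower, with 40.2% and 36.6% of all genes called in those directions. Egln3 (log2 fold change 9.23 ± 0.18), Hk2 (7.44 ± 0.16) and Aldoc (7.14 ± 0.18) again had the largest values, Pdk1 was the member that was lower (-0.18 ± 0.08, adjusted p = 0.039, edgeR), and Kdm3a was at 90.3, 75.0 and 86.5 CPM and was not called. In KO cells 34 members were higher and 1 lower both in Th1 against naive (40.3% and 36.2% of all genes) and in Th2 against naive (39.9% and 36.4%). Kdm3a was the member that was lower in both KO comparisons. The lower calls were not stable: Pdk1 in WT Th2 did not pass in edgeR without the filter (adjusted p = 0.30), with unstranded counts (0.62), with the replicate block (0.067) or with the 2 groups alone (0.059). It also did not pass without any 1 of the 4 naive libraries, replicate 1 or 3 of WT Th2 or replicate 1 of KO Th2 (highest adjusted p = 0.28). Pdk1 in WT Th1 did not pass without the filter (adjusted p = 0.11, edgeR), with unstranded counts (0.23) or without the second WT naive library (0.096), and Kdm3a in KO Th1 did not pass without the first KO naive library (0.088). Pdk1 was higher in KO Th1 than in KO naive samples, by 0.31 ± 0.08 on the log2 scale (edgeR adjusted p = 0.0011), where the KO naive samples were at 109 and 120 CPM and the KO Th1 samples at 141, 148 and 139 CPM. The Y-linked gene Ddx3y was at 106 and 122 CPM in KO naive samples and had no counts in KO Th1 or KO Th2 samples, so KO cultured and KO naive cells also differed in sex, and sex and culture cannot be told apart there. The difference of the genotype effects that lies behind this sign change was itself called and is given with the naive genotype comparison.

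**Figure D2:**
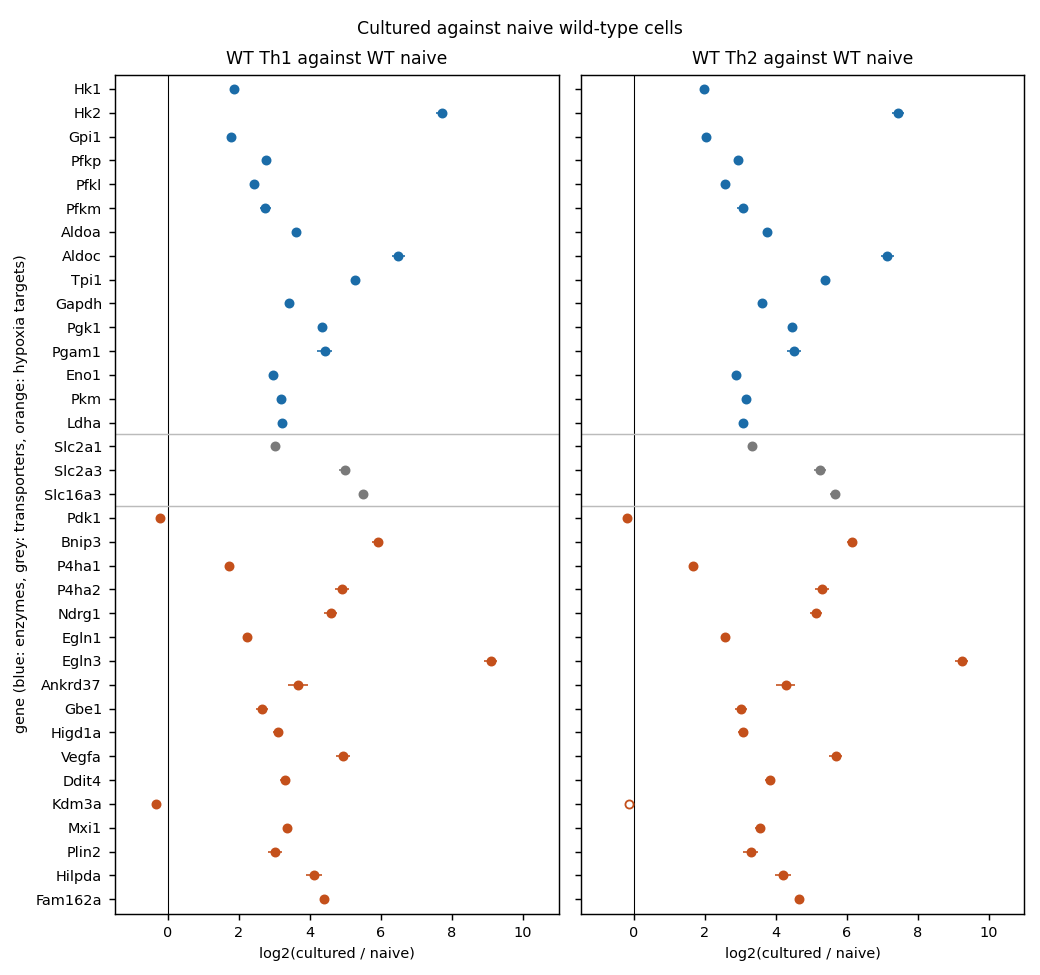
Log2 fold change ± SE of the 35 genes in WT Th1 and in WT Th2 against WT naive samples (left and right panels); filled points passed an adjusted p of 0.05. Egln3, Hk2 and Aldoc lie farthest to the right, and Pdk1 and Kdm3a lie just left of 0.

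Levels divided by exon length can be set beside each other between related genes. Hk2 was at 0.321 and Hk1 at 16.8 CPM per kilobase in WT naive samples, a ratio of 0.0191. In WT Th1 samples Hk2 was at 67.8 and Hk1 at 61.3 CPM per kilobase, and in WT Th2 samples at 56.0 and 65.6. The ratio was below 1 in KO Th1 (0.962) and KO Th2 samples (0.863) and from 2.04 to 3.06 in the 4 groups of the second set. Among the phosphofructokinases Pfkp led in all 10 groups, ahead of Pfkl and Pfkm, with 53.5, 37.5 and 13.3 CPM per kilobase in WT Th1 samples. Aldoa exceeded Aldoc in every group, by 102 times in WT naive and 13.9 times in WT Th1 samples. Slc2a3 was lower than Slc2a1 in WT naive samples (3.40 and 9.08 CPM per kilobase) and higher in WT Th1 samples of the first set (108 and 73.8). It was again the lower of the pair in all 4 groups of the second set, with ratios of 0.432 to 0.656. Egln3 was at 0.480 and Egln1, the main oxygen sensor of the family, at 22.2 CPM per kilobase in WT naive samples, against 265 and 105 in WT Th1 samples. These ratios have no test, and the exon length counts all annotated isoforms.

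The next question was how the genes differed between genotypes in cultured cells. In Th1 cells of the first set, hypoxia targets rose in KO against WT and glycolytic enzymes did not pass the test: 7 of 17 targets, 0 of 15 enzymes and 0 of 3 transporters were higher, and no member was lower. Over all 12616 genes tested 2.16% were called higher and 1.51% lower. All 17 targets had a log2 fold change above 0, with a median of 0.22, against medians of 0.02 for the enzymes and 0.003 for all genes, and all 17 were above 0 under each of the other settings tried too. In bulk RNA, more cells of a kind and more RNA per cell cannot be told apart.

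Vegfa was at 82.5, 103 and 94.9 CPM in WT Th1 and at 152, 125 and 123 CPM in KO Th1 samples, a log2 fold change of 0.51 ± 0.09 (SE; n = 3 libraries each; adjusted p = 0.0051, edgeR). P4ha2 was at 45.4, 43.1 and 49.8 CPM in WT and at 73.1, 62.3 and 59.6 CPM in KO samples (0.49 ± 0.09, adjusted p = 0.0050, edgeR). Ankrd37, an ankyrin repeat protein and sensitive hypoxia marker, was at 16.7, 22.0 and 22.7 CPM in WT and at 29.2, 30.9 and 24.9 CPM in KO samples (0.46 ± 0.13, adjusted p = 0.046, edgeR). Every KO sample was above every WT sample in these 3 genes, and the first KO replicate was the highest for Vegfa and P4ha2.

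Gbe1, the glycogen branching enzyme, was at 70.9, 89.6 and 94.3 CPM in WT Th1 and at 126, 107 and 106 CPM in KO Th1 samples (0.41 ± 0.11, adjusted p = 0.045, edgeR). Ddit4, an inhibitor of mTORC1 that is induced by hypoxia and other stress, was at 135, 146 and 150 CPM in WT and at 200, 179 and 171 CPM in KO samples (0.35 ± 0.09, adjusted p = 0.039, edgeR). Bnip3 was at 216, 233 and 259 CPM in WT and at 327, 293 and 275 CPM in KO samples (0.33 ± 0.08, adjusted p = 0.017, edgeR). Kdm3a was at 71.9, 70.3 and 74.6 CPM in WT and at 90.1, 84.2 and 90.3 CPM in KO samples (0.28 ± 0.08, adjusted p = 0.049, edgeR). Here too the 2 groups of samples did not overlap, although the calls of Ankrd37, Gbe1 and Kdm3a were close to the threshold. All these genes were named because they were called, and the share of all genes without overlap was not counted.

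The other 10 targets had log2 fold changes from 0.07 (Higd1a and Egln1) to 0.27 (Plin2, a lipid droplet coat protein) and did not pass. Of the enzymes, Hk2 was at 420, 405 and 388 CPM in WT and at 342, 330 and 395 CPM in KO Th1 samples (-0.19 ± 0.07, adjusted p = 0.16, edgeR), the largest value in size of the 15. Ldha, lactate dehydrogenase A, was at 1728, 1668 and 1786 CPM in WT and at 1787, 1909 and 1709 CPM in KO samples (0.06 ± 0.06). Pkm, the pyruvate kinase gene of most tissues, was at 2697, 2766 and 2725 CPM in WT and at 2557, 2661 and 2619 CPM in KO samples (-0.07 ± 0.05).

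The count of 7 depended on single libraries. It was 2 without the first replicate of WT Th1 or of KO Th1, 3 without the second replicate of either or without any 1 replicate of KO Th2, 4 without the first replicate of WT Th2, and 4 where the 2 Th1 groups were fitted alone; P4ha2 and Vegfa stayed below an adjusted p of 0.05 in all 12 fits that left out 1 library (highest 0.030 and 0.042). Markers of other fates moved with this result: the Th1 markers summed to 532 to 929 CPM in WT and 216 to 363 CPM in KO Th1 samples, the Th2 markers Gata3, Il4 and Il13 to 155 to 308 and 332 to 682 CPM, and the gamma-delta T cell markers Trdc, Tcrg-C1 and Tcrg-C2 to 13.4 to 23.0 and 3.12 to 7.04 CPM. Their part in the result was not tested.

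In Th2 cells none of the 35 members was called between the genotypes (edgeR; 0.103% of all genes passed as higher in KO and 0.222% as lower, with 1181 of 12616 at an unadjusted p under 0.05; DESeq2 also called 0 members). Vegfa was at 158, 146 and 168 CPM in WT Th2 and at 154, 163 and 174 CPM in KO Th2 samples (0.04 ± 0.09). P4ha2 was at 62.8, 54.4 and 62.5 CPM in WT and at 64.0, 70.1 and 68.9 CPM in KO samples (0.16 ± 0.09, adjusted p = 0.65, edgeR). In this comparison 9 of the 17 targets were above 0, with a median of 0.001.

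Whether the genotype effect differed between the fates was tested as an interaction in the same fit. No member was called and 0% of all genes were called higher or lower in edgeR, with 1225 of 12616 genes at an unadjusted p under 0.05, while DESeq2 called 16 genes higher and 6 lower. Without the low-count filter edgeR called 3 targets and 1 transporter, all higher, with 157 genes higher and 56 lower among 25240. With the filter, the largest values among the members were those of Ankrd37 (Th1 effect minus Th2 effect 0.74 ± 0.18, adjusted p = 0.21), Ddit4 (0.47 ± 0.13, adjusted p = 0.28) and Vegfa (0.47 ± 0.13, adjusted p = 0.30, edgeR). All 17 targets had a positive difference. With the filter, the rise of targets in KO Th1 cells is therefore not shown to differ from the absence of calls in Th2 cells, and the result depended on the filter.

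**Figure D3:**
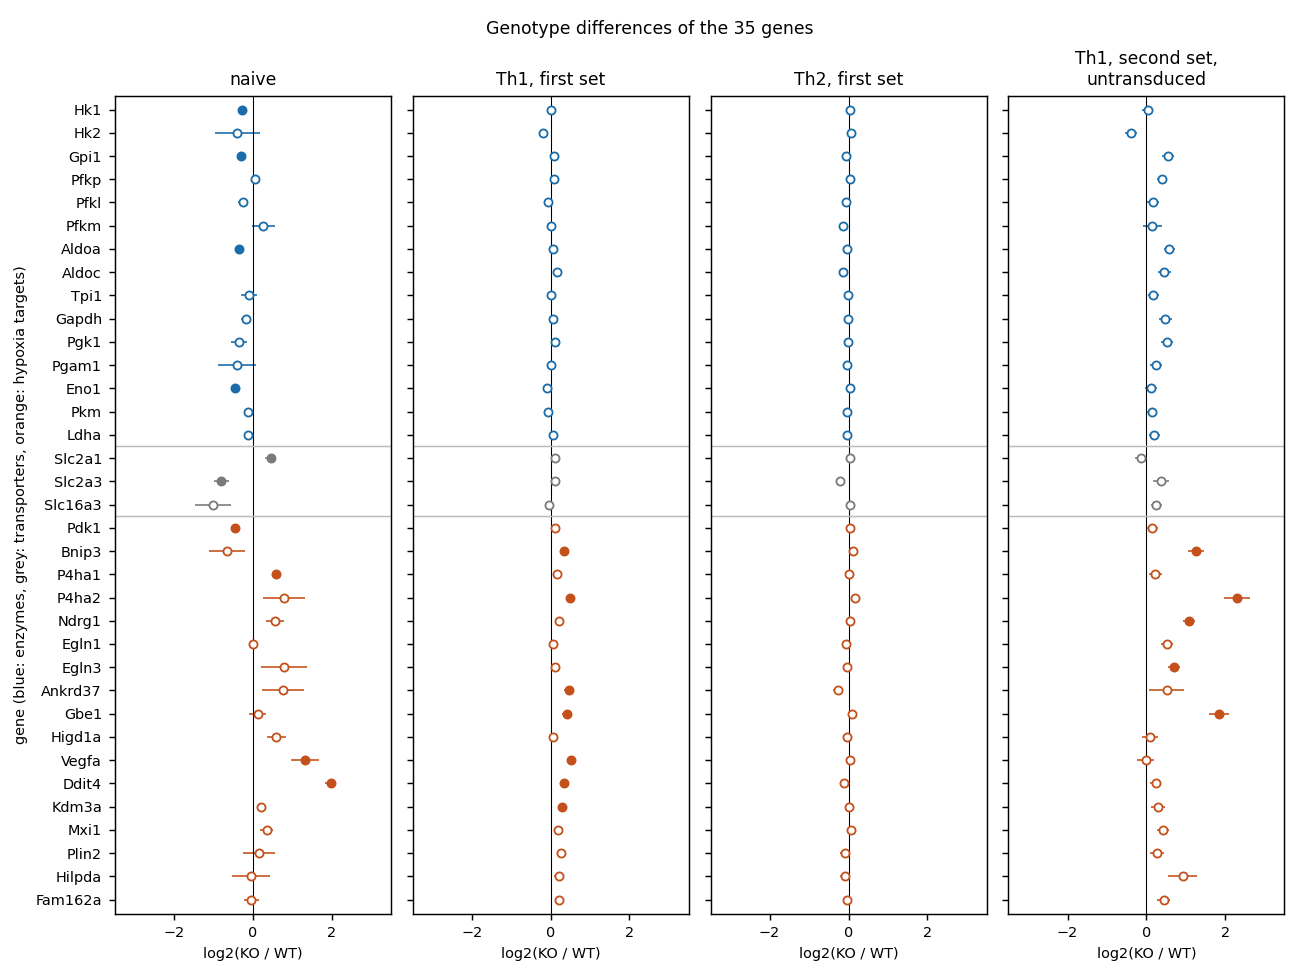
Log2 fold change ± SE, KO over WT, of the 35 genes in naive cells, in Th1 and Th2 cells of the first set and in the untransduced samples; filled points passed an adjusted p of 0.05. All 17 hypoxia targets lie right of 0 in Th1 cells of the first set and 16 of 17 in the second, where P4ha2 and Gbe1 lie farthest out.

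HIF-1 is known to bind the core letters ACGTG or GCGTG. These letters were searched on both strands, overlaps counted, in RefSeq promoter windows (GRCm38.p6) from 250 bases before to 50 bases after each RefSeq start. Windows were matched for 33 of the 35 symbols (not Slc2a3 and Ndrg1), 51 windows in all. A core was present in 39 of the 51 member windows (76.5%) and in 43.8% of 32851 windows of all genes, and 2 or more cores in 56.9% and 20.6%. By gene, 15 of 16 targets, 13 of 15 enzymes and both transporters had a window with a core, and Gpi1, Tpi1 and Gbe1 had none. A gene with several windows has more chances of a core, and the share by gene was not counted over all genes. The counts by gene therefore have no background and cannot be set against the shares of windows. A core was present in 73.9% of the windows of targets and in 76.9% of those of enzymes. Both cores contain the dinucleotide CG, and the member windows held more of it (20.3 per window against 12.4 over all windows). A match is a description of the sequence and does not show binding.

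Stretches before a RefSeq start of 4 targets that rose in KO Th1 cells are shown first. Those of 3 enzymes that did not pass follow. The stretches of P4ha2, Ankrd37 and Ldha lie within the span of the gene in GENCODE M21. Each core is in capitals on the strand of the gene (ACGTG and GCGTG read CACGT and CACGC on the other strand).
P4ha2, chr11:54100797-54100879, plus strand: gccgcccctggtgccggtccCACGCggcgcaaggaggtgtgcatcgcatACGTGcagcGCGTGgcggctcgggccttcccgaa
Bnip3, chr7:138909581-138909643, minus strand: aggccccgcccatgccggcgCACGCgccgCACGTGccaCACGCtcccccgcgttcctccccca
Ankrd37, chr8:45999978-46000025, minus strand: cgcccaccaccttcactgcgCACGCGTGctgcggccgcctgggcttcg
Ddit4, chr10:59951933-59951977, minus strand: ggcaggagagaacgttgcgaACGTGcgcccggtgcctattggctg
Ldha, chr7:46845736-46845794, plus strand: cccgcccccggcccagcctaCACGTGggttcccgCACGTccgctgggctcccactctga
Pgk1, chrX:106186930-106186993, plus strand: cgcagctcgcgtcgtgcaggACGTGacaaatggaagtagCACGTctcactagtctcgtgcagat
Hk2, chr6:82774482-82774526, minus strand: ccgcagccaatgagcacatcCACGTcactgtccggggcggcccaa
The Bnip3 stretch holds 4 cores and the P4ha2 and Ldha stretches 3 each.

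Th1 and Th2 cells of the same genotype were then compared. In WT cells most members that differed were lower in Th1: 10 of 17 hypoxia targets, 5 of 15 enzymes (Gpi1, Pfkp, Pfkm, Aldoc and Gapdh) and 2 of 3 transporters were lower, and Hk2 alone was higher. Over all genes 15.8% were lower and 13.7% higher, so the share of lower targets was above the share over all genes and that of higher members below it. The median was -0.27 over the targets, -0.15 over the enzymes and -0.007 over all genes. This comparison shares its WT Th1 samples with the Th1 genotype comparison, so the 2 are not independent.

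Vegfa was at 82.5 to 103 CPM in WT Th1 and at 158, 146 and 168 CPM in WT Th2 samples, a log2 fold change of -0.77 ± 0.10 (SE; n = 3 libraries each; edgeR adjusted p = 5.7e-06). Aldoc was at 152, 172 and 135 CPM in Th1 and at 245, 225 and 245 CPM in Th2 samples (-0.67 ± 0.08, adjusted p = 4.8e-06, edgeR). Ankrd37 was at 35.8, 27.3 and 30.6 CPM in WT Th2 samples, above all WT Th1 samples (-0.63 ± 0.13). Ndrg1, a differentiation and stress gene, was at 204, 260 and 251 CPM in WT Th1 and at 353, 296 and 392 CPM in WT Th2 samples (-0.57 ± 0.10), and Ddit4 was at 201, 182 and 246 CPM in WT Th2 samples (-0.56 ± 0.09). In each of these 5 genes, named because they were called, all Th2 samples were above all Th1 samples.

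Slc2a1 was at 255, 258 and 262 CPM in WT Th1 and at 330, 290 and 347 CPM in WT Th2 samples (-0.34 ± 0.07, adjusted p = 0.00069, edgeR), and Slc16a3 at 192, 193 and 180 against 206, 213 and 214 CPM (-0.18 ± 0.06, adjusted p = 0.039, edgeR). Pfkm, the muscle-type phosphofructokinase, was at 40.9, 46.6 and 46.2 CPM in Th1 and at 58.9, 53.8 and 53.6 CPM in Th2 samples (-0.34 ± 0.08). Gpi1 was lower too, with 633, 693 and 643 CPM in Th1 and 785, 728 and 864 CPM in Th2 samples (-0.29 ± 0.06). Hk2 went the other way, with 420, 405 and 388 CPM in Th1 and 343, 325 and 335 CPM in Th2 samples (0.25 ± 0.07, adjusted p = 0.011, edgeR). The remaining lower targets, Bnip3, P4ha2, Egln1, Gbe1, Kdm3a and Fam162a, had values from -0.40 to -0.24. The number of members called was 10 without the first replicate of WT Th1 and 22 at most among the fits that left out 1 library.

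In KO cells 7 members differed between Th1 and Th2: Ldha was higher, and Aldoc, Slc2a1, Slc16a3, Ndrg1, Egln1 and Vegfa were lower, where 8.01% of all genes were higher and 9.51% lower. Vegfa was at 152, 125 and 123 CPM in KO Th1 and at 154, 163 and 174 CPM in KO Th2 samples (-0.30 ± 0.09, adjusted p = 0.030, edgeR). Bnip3, with 327, 293 and 275 CPM in KO Th1 and 305, 303 and 307 CPM in KO Th2 samples, overlapped (-0.04 ± 0.08). Without the third replicate of KO Th1 or of KO Th2 the count was 3, and without the second replicate of either it was 4. Whether the Th1 and Th2 difference itself changed with genotype is the interaction given above, which called no member with the low-count filter.

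The second Th1 set held another comparison of KO with WT Th1 cells, on other libraries. In untransduced cells 5 of 17 hypoxia targets were higher in KO in edgeR, and no enzyme or transporter and no target in the lower direction was called; 0.605% of all 11072 genes were higher and 0.632% lower. The targets had a median log2 fold change of 0.43, the enzymes of 0.20 and all genes of -0.007, and 16 targets and 14 of 15 enzymes were above 0.

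P4ha2 was at 4.68 and 3.88 CPM in WT and at 18.04 and 22.47 CPM in KO untransduced samples, a log2 fold change of 2.29 ± 0.33 (SE; n = 2 samples each; adjusted p = 0.0024, edgeR). Gbe1 was at 8.81 and 11.8 CPM in WT and at 32.1 and 41.1 CPM in KO samples (1.85 ± 0.25, adjusted p = 0.0021, edgeR). Bnip3 was at 38.3 and 55.5 CPM in WT and at 88.6 and 129 CPM in KO samples (1.25 ± 0.20, adjusted p = 0.0061, edgeR). In these genes, named because they were called, each of the 2 KO samples was above both WT samples. The same order within each B number follows from this and is no further check.

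Ndrg1 was at 63.6 and 59.8 CPM in WT and at 123 and 128 CPM in KO untransduced samples (1.09 ± 0.15, adjusted p = 0.0024, edgeR). Egln3 was at 304 and 358 CPM in WT and at 549 and 478 CPM in KO samples (0.70 ± 0.15, adjusted p = 0.032, edgeR). Bnip3, P4ha2 and Gbe1 were thus called in both sets, Ndrg1 and Egln3 in the second set (0.20 ± 0.10 and 0.12 ± 0.07 in the first), and Ankrd37, Vegfa, Ddit4 and Kdm3a in the first. Vegfa was at 36.3 and 42.7 CPM in WT and at 30.5 and 46.9 CPM in KO untransduced samples (-0.02 ± 0.21), with KO on both sides of WT. The 2 sets were fitted apart and the difference of their effects was not tested.

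Aldoa had the largest difference among the enzymes, with 1287 and 1557 CPM in WT and 2191 and 1865 CPM in KO untransduced samples (0.58 ± 0.14, adjusted p = 0.054, edgeR). Gpi1 was at 438 and 538 CPM in WT and at 755 and 600 CPM in KO samples (0.54 ± 0.15, adjusted p = 0.10, edgeR). Gapdh was at 991 and 1380 CPM in WT and at 1760 and 1385 CPM in KO samples (0.48 ± 0.17, adjusted p = 0.19, edgeR), and Pgk1 at 365 and 462 against 609 and 522 CPM (0.52 ± 0.16, adjusted p = 0.14, edgeR). In these 4 enzymes both KO samples were above both WT samples, Gapdh only by 1385 against 1380 CPM, and none of the 4 passed the test. The share of all genes with such an order was not counted. Aldoa passed in DESeq2 (adjusted p = 0.0061), in edgeR with the B number as a block (adjusted p = 0.041) and without either empty-vector sample. All 4 passed in edgeR without the low-count filter, and Aldoa, Gpi1 and Pfkp passed with each library as a replicate. Hk2 was lower in both KO samples (384 and 407 CPM) than in both WT samples (535 and 551 CPM) and did not pass (-0.39 ± 0.15, adjusted p = 0.22, edgeR).

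The count of 5 was 3 without the second KO untransduced sample, where Bnip3 and Egln3 no longer passed; P4ha2, Ndrg1 and Gbe1 passed in all 8 fits that left out 1 sample. The Th1 markers summed to 1492 to 1600 CPM in WT and 471 to 586 CPM in KO untransduced samples, the Th2 markers to 18.2 to 19.6 and 37.7 to 59.7 CPM, and the gamma-delta markers to 8.81 to 10.1 and 1.28 to 1.31 CPM; their part in the result was not tested.

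**Figure D4:**
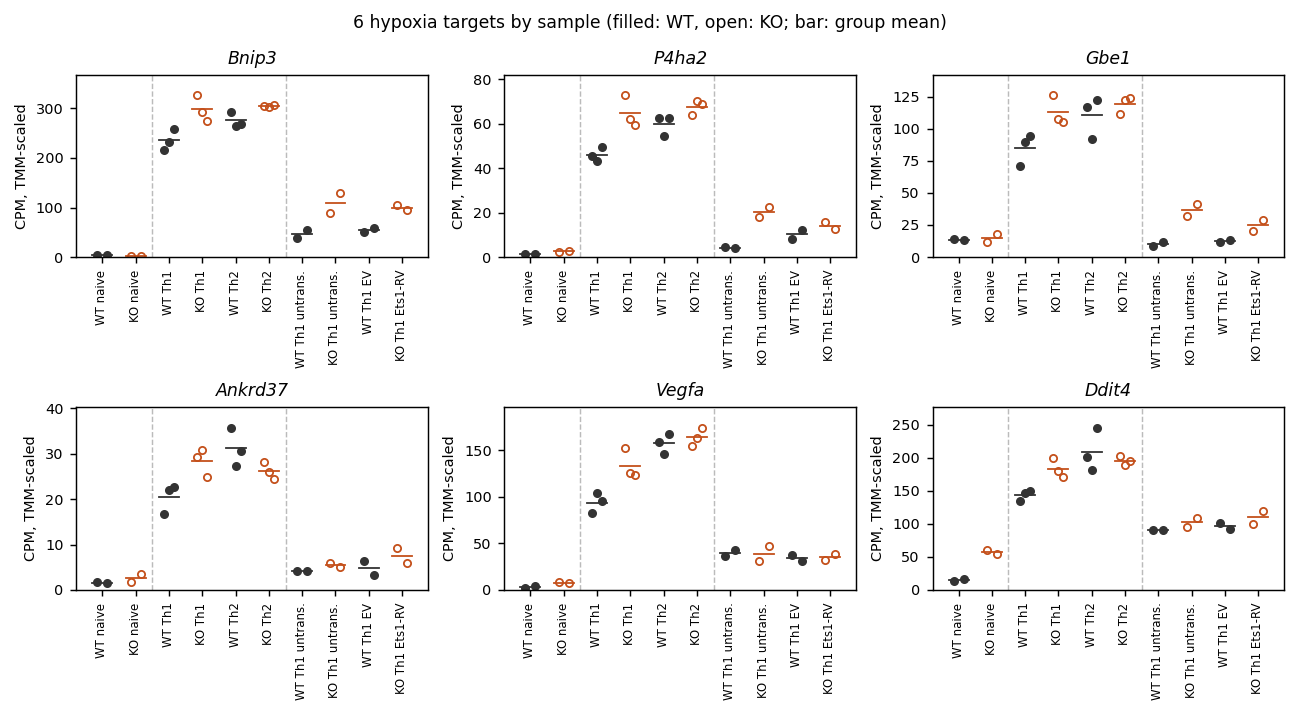
CPM, TMM-scaled, of 6 hypoxia targets in each sample of the 10 groups, with group means as bars; dashed lines part the naive, first and second sets. Open KO points lie above filled WT points in Th1 cells of the first set for all 6 genes. In untransduced cells of the second set they do so for Bnip3, P4ha2 and Gbe1, while those of Vegfa lie on both sides of WT.

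Transduced cells were compared next. Between WT cells with the empty vector and untransduced WT cells no member and no gene was called in edgeR (0% higher, 0% lower; 268 genes had an unadjusted p under 0.05; DESeq2 called none). P4ha2, at 8.33 and 12.2 CPM with the empty vector and 4.68 and 3.88 CPM without, had the largest value (1.20 ± 0.32), and its groups did not overlap.

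KO cells with the Ets1 virus against untransduced KO cells differ in the virus and in Ets1 at once. No member was called in edgeR, where 0.126% of all genes were higher and 0.0632% lower and 1162 had an unadjusted p under 0.05. DESeq2 called 2 members lower, 1 enzyme and 1 target. Ndrg1 was at 88.6 and 69.6 CPM with the virus and at 123 and 128 CPM without (-0.77 ± 0.15, adjusted p = 0.051, edgeR, and 0.023 in DESeq2). Gbe1 was at 20.7 and 28.6 CPM with the virus and at 32.1 and 41.1 CPM without (-0.63 ± 0.22, adjusted p = 0.31, edgeR), and P4ha2 at 15.8 and 12.6 against 18.04 and 22.47 CPM (-0.59 ± 0.27, adjusted p = 0.45, edgeR). In all 3 genes the samples with the virus were below those without it, and with the B number as a block Ndrg1 passed (adjusted p = 0.032, edgeR). Bnip3, at 104 and 94.5 CPM with the virus, lay between the 2 untransduced KO samples. These untransduced KO samples are shared with the genotype comparison above, so the 2 comparisons are not independent.

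KO cells with the Ets1 virus against WT cells with the empty vector, which share no sample with the untransduced comparison, differ in genotype and in the insert. No member was called in edgeR (0.298% of all genes higher, 0.262% lower, 1064 at an unadjusted p under 0.05). DESeq2 put 2 members past the threshold. Gbe1 was at 11.5 and 13.2 CPM in WT and at 20.7 and 28.6 CPM in KO (1.03 ± 0.22, adjusted p = 0.054, edgeR). Bnip3 was at 50.9 and 58.7 CPM in WT and at 104 and 94.5 CPM in KO (0.86 ± 0.19, adjusted p = 0.054, edgeR), and Egln3 at 276 and 325 against 433 and 521 CPM (0.66 ± 0.15, adjusted p = 0.061, edgeR). All 3 genes were higher in both KO samples than in both WT samples, just short of the threshold. The B number goes with the Y-linked counts in every group of this set; with it as a block all 3 passed (adjusted p = 0.020 for Gbe1, 0.019 for Bnip3 and 0.027 for Egln3, edgeR). Without the block the count was 2 without either of the WT untransduced samples, which enter through the shared spread, and 1 without either KO untransduced sample, without the second empty-vector sample or without the first Ets1-virus sample.

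Naive cells gave the largest number of members called between the genotypes in edgeR, 10, in a set whose genotypes also differed in sex. Of 34 members tested (Aldoc had too few counts), 4 were higher in KO and 6 lower: 4 enzymes were lower and none higher, the 2 glucose transporters went in opposite directions, and 3 targets were higher and 1 lower. Over all 11246 genes 8.75% were higher and 8.92% lower. The median was -0.26 over the enzymes, 0.35 over the targets and 0.003 over all genes.

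Ddit4 was at 13.4 and 15.8 CPM in WT naive and at 60.2 and 54.7 CPM in KO naive samples, a log2 fold change of 1.97 ± 0.15 (SE; n = 2 libraries each; edgeR adjusted p = 1.5e-32). Vegfa was at 2.23 and 3.83 CPM in WT and at 8.27 and 7.02 CPM in KO samples (1.32 ± 0.35, adjusted p = 0.0024, edgeR). P4ha1, another collagen prolyl hydroxylase subunit, was at 57.4 and 45.2 CPM in WT and at 77.1 and 77.3 CPM in KO samples (0.59 ± 0.11, edgeR adjusted p = 2.0e-06). Pdk1 was at 153 and 158 CPM in WT and at 109 and 120 CPM in KO samples (-0.44 ± 0.08, edgeR adjusted p = 1.5e-06). The genotypes did not overlap in any of these 4 genes, which were named because they were called.

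Slc2a3 was at 26.6 and 22.7 CPM in WT naive and at 12.4 and 15.8 CPM in KO naive samples (-0.80 ± 0.19, adjusted p = 0.00030, edgeR), whereas Slc2a1 was at 33.6 and 30.0 CPM in WT and at 44.6 and 42.8 CPM in KO samples (0.45 ± 0.13, adjusted p = 0.0069, edgeR). The lower enzymes were Eno1, enolase 1, at 105 and 120 against 92.2 and 72.9 CPM (-0.45 ± 0.09), Aldoa at 149 and 157 against 125 and 116 CPM (-0.35 ± 0.08), Gpi1 at 198 and 186 against 159 and 151 CPM (-0.31 ± 0.07) and Hk1 at 140 and 146 against 123 and 114 CPM (-0.27 ± 0.08). In all 6 genes, named because they were called, the samples of 1 genotype were all above those of the other. How many of all genes have such an order was not counted.

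Only Ddit4 of the 10 called members passed in all 4 fits that left out 1 library, and the count was 1 without the first KO naive library and 2 without the second. A list of 11 stress and immediate early genes summed to 4157 and 4191 CPM in WT and to 7265 and 7714 CPM in KO naive samples, B cell markers to 227 to 231 and 167 to 173 CPM, and erythroid and platelet markers to 19.3 and 5.22 to 7.37 CPM; their part in the result was not tested, and sex and genotype cannot be told apart here.

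The genotype effect in naive cells differed from that in cultured cells for 5 members each in Th1 and in Th2, tested as interactions over all 14029 genes (1.6% higher and 1.45% lower for Th1, 1.6% and 1.7% for Th2). Without any 1 of the naive libraries 2 or 3 members were called in each, and without the second KO naive library the genes called fell from 428 to 170 for Th1 and from 462 to 190 for Th2. Ddit4 differed in both: its log2 genotype effect in cultured minus that in naive cells was -1.62 ± 0.18 for Th1 and -2.09 ± 0.18 for Th2. Pdk1 differed in both in the other direction, by 0.55 ± 0.11 and 0.48 ± 0.11. Gpi1, Aldoa and Slc2a3 differed for Th1 and Eno1, P4ha1 and Vegfa for Th2.

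The mean of log2(CPM + 1) over the 15 enzymes and over the 17 targets puts the 2 groups on 1 scale per sample and has no test. In naive samples the enzymes were at 5.29 ± 0.08 in WT and 5.09 ± 0.15 in KO (SD, n = 2 each), and the targets at 3.60 ± 0.07 and 3.95 ± 0.05. In Th1 samples of the first set the enzymes were at 8.91 ± 0.03 in WT and 8.93 ± 0.01 in KO (SD, n = 3 each), and the targets at 6.92 ± 0.10 and 7.18 ± 0.09. Th2 samples had enzymes at 9.03 ± 0.07 in WT and 9.02 ± 0.02 in KO and targets at 7.20 ± 0.10 and 7.21 ± 0.02. The KO Th1 targets, at 7.09 to 7.27, lay above the WT Th1 targets, at 6.809 to 7.005, and within or beside the range of the Th2 samples, at 7.08 to 7.28.

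Both scores were lower in the second set than in the first, the targets by more. Enzymes were at 8.50 ± 0.11 in WT and 8.69 ± 0.09 in KO untransduced samples, and targets at 5.37 ± 0.11 and 5.94 ± 0.07 (SD, n = 2 each). Targets were at 5.54 ± 0.05 in WT with the empty vector and 5.87 ± 0.03 in KO with the Ets1 virus. The gap between enzymes and targets was 1.99 ± 0.10 in WT Th1 samples of the first set and 3.13 ± 0.01 in WT untransduced samples of the second. Scores depended on the scaling: in raw CPM without TMM the enzymes were at 9.08 in WT Th1 and 8.23 in WT untransduced samples and the targets at 7.08 and 5.11, while the gap was 2.00 and 3.12. The enzymes did not move together, since Pfkp was at 53.5 and 22.7 and Tpi1 at 226 and 121 CPM per kilobase in these groups, and Gapdh at 197 and 287. Slc2a3 stood apart in the same way, at 666 to 905 CPM in WT Th1 samples of the first set and 90.6 and 125 CPM in WT untransduced samples of the second, and Hilpda, an inhibitor of lipid droplet breakdown, was at 40.2 to 52.6 and at 3.85 and 5.63 CPM. The 2 are separate sets of libraries, so these levels are given side by side with no test. Multimapping reads made up 15.03% to 17.58% of reads in the first Th1 and Th2 libraries and 8.98% to 10.22% in the second set. The most abundant genes held 23.2% to 27.9% and 37.6% to 47.8% of the counts. Of the 8 enzymes with over 5% shared 61-base stretches, Gapdh, Pgk1 and Pgam1 were higher in WT untransduced than in first-set WT Th1 samples. The others, Gpi1, Pfkm, Eno1, Pkm and Ldha, were lower. Of the enzymes that share no such stretch, Hk2 was higher, and Hk1, Pfkp, Pfkl and Aldoc were lower. The part of these differences in the levels was not tested.

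**Figure D5:**
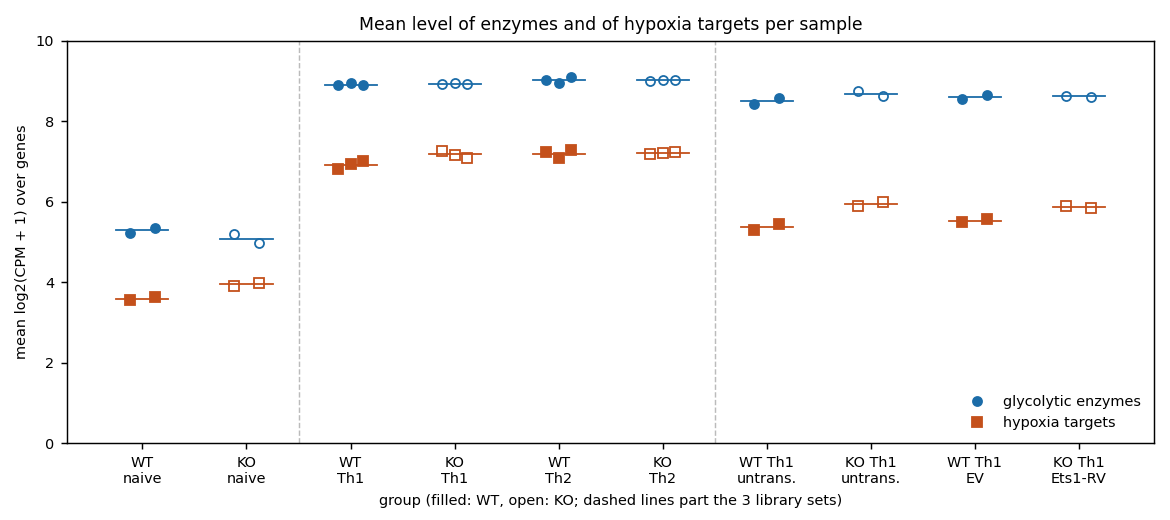
Mean log2(CPM + 1) over the 15 enzymes (circles) and over the 17 hypoxia targets (squares) in each sample; lines are group means and dashed lines part the 3 sets. The circles stay between 8.42 and 9.10 in all cultured samples, while the squares lie between 6.81 and 7.27 in Th1 samples of the first set and between 5.29 and 5.99 in the second.

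Other genes of the same pathways were counted from lists chosen with earlier results of these data known, so their counts are no independent check. Of 27 further HIF targets, 25 were tested in the first set, and 10 were higher and none lower in KO than in WT Th1 samples, against 2.16% and 1.51% of all genes, with a median of 0.30. Bhlhe41, a circadian repressor, was at 0.382, 0.407 and 1.13 CPM in WT and at 3.68, 2.66 and 4.32 CPM in KO Th1 samples (2.40 ± 0.34, adjusted p = 0.00066, edgeR), levels that rest on few counts. Next in size were Stbd1, a glycogen-binding protein (0.81 ± 0.22), and Stc2, a secreted glycoprotein (0.69 ± 0.15). Ero1l, an oxidase of protein folding in the endoplasmic reticulum, was at 586, 659 and 722 CPM in WT and at 1231, 896 and 866 CPM in KO Th1 samples (0.60 ± 0.11, adjusted p = 0.0043, edgeR). In untransduced cells 20 were tested, and 3 were higher and 1 lower in KO, against 0.605% and 0.632% of all genes: Ero1l (0.90 ± 0.15), Cxcr4, a chemokine receptor (1.11 ± 0.21), and Nfil3, a leucine zipper repressor (0.76 ± 0.14), were higher, and Tfrc, the transferrin receptor, was lower (-0.87 ± 0.16). Ero1l, Cxcr4 and Nfil3 were also among the 10 in the first set; Ero1l there and Nfil3 here were named after their values were seen.

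Of 15 genes of the HIF pathway itself, none of the 14 tested in Th1 cells of the first set and none of the 13 tested in untransduced cells was called between the genotypes. Over all genes 2.16% were higher and 1.51% lower in the former, and 0.605% and 0.632% in the latter. Hif1a was at 1430, 1473 and 1512 CPM in WT Th1 and at 1463, 1446 and 1633 CPM in KO Th1 samples. Against naive cells Hif1a was the member of this list with the largest difference in WT Th1 (3.13 ± 0.08), from 169 and 164 CPM in naive samples. Between WT Th1 and WT Th2, Epas1, which encodes HIF-2alpha, was at 17.2, 19.9 and 12.7 against 83.2, 73.1 and 61.6 CPM (-2.15 ± 0.28), and Vhl, the ubiquitin ligase subunit that removes HIF, at 24.2, 25.7 and 30.2 against 47.3, 39.8 and 52.9 CPM (-0.83 ± 0.12).

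In Th1 cells of the first set 2.16% of all genes were higher in KO and 1.51% lower. Of 26 further genes of glycolysis and its side paths, 19 were tested in the first set and 1 was called between the genotypes in Th1 cells. It was Ldhb, the lactate dehydrogenase subunit of oxidative tissues, at 10.89, 15.97 and 9.066 CPM in WT and at 27.12, 24.08 and 23.97 CPM in KO Th1 samples (1.07 ± 0.15, adjusted p = 0.00066, edgeR). In untransduced cells, where 0.605% of all genes were higher and 0.632% lower, 1 of 17 was called. It was Pgm1, phosphoglucomutase, at 74.9 and 84.6 CPM in WT and at 116 and 129 CPM in KO samples (0.68 ± 0.15, adjusted p = 0.038, edgeR). Of 17 genes of pyruvate entry into mitochondria and the citric acid cycle, 1 was higher in KO Th1 cells, Pdk4. It was at 0.860, 0.814 and 0.0872 CPM in WT and at 9.57, 1.10 and 2.57 CPM in KO samples, with 1 KO sample far above the others (2.89 ± 0.73, adjusted p = 0.031, edgeR). A single call in lists of this size does not clearly set them apart from all genes. Of 18 genes of the MYC and mTOR pathways, 3 were lower in KO Th1 cells, Mycn (-0.75 ± 0.20), the amino acid transporter gene Slc7a5 (-0.37 ± 0.09) and Myc (-0.33 ± 0.09), against 1.51% of all genes lower, and none of the 18 was called in untransduced cells.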

How the data were processed

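The authors deposited raw read counts per gene for 36 libraries; the submitters' processing notes name STAR 2.5.0a and GRCm38, with no annotation release. The counts of the strand that held 93.3% to 95.2% of stranded counts were used, without the 4 summary lines (unmapped, multimapping, ambiguous and unassigned reads), which held 63.6% to 76.0% of each column's total. Symbols came from GENCODE M21, which matched 45143 of 45706 identifiers. Groups follow the labels; 8 libraries with conflicting labels were left out of comparisons. Members and lists were chosen with earlier results of these data known.

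Comparisons used the edgeR 4.0.16 quasi-likelihood test (R 4.3.3) with TMM scaling, filterByExpr and Benjamini-Hochberg adjustment across every gene in the fit (threshold 0.05), in 3 fits: naive alone, Th1 with Th2, and the second set; naive and cultured cells were compared in a joint fit. SE is the absolute log2 fold change over the square root of F. The code was tested on simulated counts. Alternatives were DESeq2 1.42.0, RLE factors, no filter, unstranded counts, a replicate block, each library as a replicate, 2 groups alone and leaving out each replicate. Values in every sample were given for members among the 4 largest called changes of their role group, for isoform pairs, and for up to 3 called genes per further list; other named genes were chosen after their values were seen. Between replicates chi-square per gene was 1.256 to 16.567, and no pair was identical. Counts limit precision at low levels. Where samples of 2 groups are said not to overlap, the share of all genes without overlap was not counted.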

Additional observations from a re-analysis of the deposited data

Results flagged for a closer look

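For 10 values the genotype effect (log2 KO over WT) differed between cultured and naive cells by the interaction test (edgeR, adjusted over 14029 genes). For Th1 minus naive the difference was 0.41 for Gpi1, 0.40 for Aldoa, 0.92 for Slc2a3, 0.55 for Pdk1 and -1.62 for Ddit4. For Th2 minus naive it was 0.48 for Eno1, 0.48 for Pdk1, -0.57 for P4ha1, -1.28 for Vegfa and -2.09 for Ddit4. The naive genotypes also differ in sex, which cannot be told apart from genotype there. Without 1 of the naive libraries 2 or 3 members were called in each contrast.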

How the results depend on the processing

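With DESeq2 6 members were called between naive genotypes (3 of them enzymes) and 6 between untransduced genotypes (1 of them an enzyme). It called 2 between KO cells with the Ets1 virus and untransduced KO cells (1 of them an enzyme). Between KO cells with the Ets1 virus and WT cells with the empty vector it called 2. Without the low-count filter 4 were called in the Th1 minus Th2 interaction and 9 between untransduced genotypes (4 of them enzymes). For the Ets1 virus 2 were called against untransduced KO (1 of them an enzyme) and 3 against WT with the empty vector. With 2 groups alone 4 were called for Th1 KO against WT and 1 for the Ets1 virus against the empty vector, and with unstranded counts 1 for the latter. With each library as a replicate 8 were called for untransduced genotypes (3 of them enzymes). The Ets1 virus gave 2 against untransduced KO and 5 against the empty vector, with 1 enzyme in each. The cause of these changes was not tested.

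Leaving out 1 replicate gave 1 to 8 members for naive genotypes, 2 to 7 for Th1 genotypes, 10 to 22 for WT Th1 against Th2, 3 to 8 for KO Th1 against Th2, 2 to 5 and 2 to 7 for the naive interactions with Th1 and Th2, 3 to 6 for untransduced genotypes, 33 to 35 for cultured against naive cells, 0 to 1 for the Ets1 virus against untransduced KO and 0 to 2 against the empty vector. No value changed sign while called.

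The replicate block gave 1 member for the Ets1 virus against untransduced KO, 3 against the empty vector, 6 for untransduced genotypes (1 an enzyme), 10 for naive and 7 for Th1 genotypes. Replicate numbers were not taken as pairing, although in the second set the B number goes with Y-linked counts in every group: same-numbered deviations correlated at 0.046 to 0.299 in the second set, -0.072 to 0.200 in the first and -0.046 in naive cells.

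Over all genes the counts also moved by more than 1.5 times. DESeq2 called 380 higher and 322 lower between naive genotypes (984 and 1003 in edgeR), 24 and 49 between Th2 genotypes (13 and 28), 16 and 6 in the Th1 minus Th2 interaction (0 and 0) and 22 and 13 for the Ets1 virus against untransduced KO (14 and 7). Without the filter the counts were 466 and 369 for Th1 genotypes (272 and 190), 78 and 146 for Th2 genotypes, 157 and 56 for the interaction, 156 and 260 for untransduced genotypes (67 and 70), 2 and 15 for the empty vector (0 and 0), 123 and 89 for the virus against untransduced KO and 113 and 144 against the empty vector (33 and 29). The replicate block gave 24 and 39 for Th2 genotypes, 93 and 119 for untransduced genotypes, 30 and 15 for the virus against untransduced KO and 50 and 45 against the empty vector. Each library as a replicate gave 120 and 146, 70 and 56, and 242 and 199 for the last 3 comparisons. With 2 groups alone the counts were 25 and 41 for Th2 genotypes and 6 and 1 for the virus against untransduced KO. Leaving out 1 replicate, the totals were 399 to 1219 for naive, 176 to 600 for Th1, 14 to 68 for Th2 and 22 to 188 for untransduced genotypes, 0 to 55 for the virus against untransduced KO and 10 to 91 against the empty vector, 1380 to 2413 for KO Th1 against Th2 (2211), 170 to 520 and 190 to 545 for the naive interactions with Th1 and Th2 (428 and 462), 0 to 3 for the Th1 minus Th2 interaction and 0 to 5 for the empty vector. Of 40 mean scores and gaps between scores, 30 moved by more than 1 SD in raw CPM without TMM, 14 with unstranded counts and 12 with a pseudocount of 0.1.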

Other observations

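In the 8 libraries whose title and transduction label disagree, Bnip3 ranged from 25.5 to 105 raw CPM (median 54.2), Gbe1 from 5.31 to 44.5 (median 13.9), P4ha2 from 1.592 to 21.02 (median 6.111), and Ets1 from 189 to 632 (median 417). In the labelled samples of the second set Bnip3 ranged from 34.9 to 111 raw CPM and Gbe1 from 8.04 to 35.3. There, libraries of the same group and B number were summed, whereas the ranges above are over single libraries. The 8 libraries belong to no group here, and no comparison was made.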
